A study of Mus musculus with 2 samples.

Results

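Ccl3, Ccl4, Ccl5 and Xcl1 are 4 chemokine genes of the 27998 genes counted in islet-infiltrating immune cells of NOD mice. They were taken by name, all 4 were found in the gene list, and their transcripts were followed across cell classes that were set by other genes. CCL3, CCL4 and CCL5 are CC chemokines that attract T cells, macrophages and other myeloid cells, CCL3 and CCL5 in part through the receptor CCR1. XCL1 is a C chemokine whose receptor, XCR1, marks the dendritic cells that cross-present antigen to CD8 T cells. Activated CD8 T cells and natural killer cells are known sources of all of them, and such cells infiltrate the islets before diabetes in this strain.

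The cells carried CD45.1, the NOD form of the pan-leukocyte protein CD45, and were sorted from pancreatic islets of female NOD/ShiLtJ mice aged 7 weeks or 12 weeks. Polyadenylated RNA was read with 10x Genomics 3′ chemistry, which counts each captured molecule once as a unique molecular identifier (UMI). Each age has 1 library, the labels do not give the number of mice behind it, and age and library cannot be told apart. No test between ages was therefore possible. All intervals are 95% and reflect counting error alone, since the spread between mice was not measured.

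The members differ in the cysteines that define their families, and the stretch of coding sequence around the first of these is shown for that reason. The sequences are from GENCODE M21 transcripts (GRCm38), 5′ to 3′, and capitals mark cysteine codons. The 3 CC chemokines have a pair of adjacent cysteine codons, at codons 34 and 35 in Ccl3 and Ccl4 and at 33 and 34 in Ccl5, and Xcl1 has a single one, codon 32, at that place.
Ccl3: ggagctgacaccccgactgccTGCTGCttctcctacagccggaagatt
Ccl4: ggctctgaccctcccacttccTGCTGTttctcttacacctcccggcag
Ccl5: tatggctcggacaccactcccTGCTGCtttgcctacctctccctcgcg
Xcl1: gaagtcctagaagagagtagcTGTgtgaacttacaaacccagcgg

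The CC chemokine genes lie together on chromosome 11. In GRCm38, Ccl3 (ENSMUSG00000000982) spans 11:83647844-83649355 on the minus strand, Ccl4 (ENSMUSG00000018930) 11:83662584-83664683 on the plus strand and Ccl5 (ENSMUSG00000035042) 11:83525778-83530518 on the minus strand. Ccl3 and Ccl4 are 13228 bases apart, and Ccl5 is 117325 bases from Ccl3. Xcl1 (ENSMUSG00000026573) lies at 1:164931644-164935527 on the minus strand. Each gene has 3 exons. Of the 351 stretches of 50 bases in the last 400 bases of each transcript, where 3′ reads fall, 0 were shared with another gene. The exons of Xcl1 share 98 bases with Gm20743 on the opposite strand. Gm20743 is not in the gene list of these matrices, and whether the counting used strand is not stated in the labels or notes used here.

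The libraries held 1113 barcodes at 7 weeks and 2812 at 12 weeks, of which 1099 and 2741 were kept, with a median of 5634 and 4935 UMIs per cell. They shared 2 barcode sequences. Barcodes were put in a class by marker UMIs, and a barcode meeting more than 1 rule was put in none. CD8 T cells (at least 2 UMIs of Cd8a and Cd8b1, no Cd4) numbered 168 and 465. CD4 T cells (at least 1 of Cd4, no Cd8a or Cd8b1) numbered 350 and 832, lymphocytes with Ncr1, the gene of the NKp46 receptor, 71 and 65, B cells (at least 2 of Cd79a) 168 and 651, and macrophages (at least 10 of C1qa, C1qb and C1qc) 7 and 22. A Cd3d, Cd3e or Cd3g UMI was found in 97.6% and 97.9% of CD8 T cells and in 98.3% and 97.8% of CD4 T cells. The same was true of 81.7% and 84.6% of the Ncr1 lymphocytes. The class was therefore not taken as natural killer cells alone, which lack the CD3 protein, and it is named by its gene. A Cd3 UMI does not show the protein and can be background. B cells served as the background, with a Cd3 UMI in 36.9% and 26.7%.

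Counted in UMIs, Ccl5 was the most abundant member, and it was high in CD8 T cells and Ncr1 lymphocytes at both ages. CD8 T cells held 70.2 Ccl5 UMIs per 10000 UMIs of the class at 7 weeks (10068 UMIs) and 78.1 at 12 weeks (27109 UMIs). Ncr1 lymphocytes held 70.5 (68.2 to 72.9) and 103 (99.4 to 106). At 7 weeks these 2 classes did not differ beyond counting error, and at 12 weeks the Ncr1 lymphocytes were above the CD8 T cells. Macrophages held 24.2 and 20.8 per 10000, from only 7 and 22 cells, and few of these carried most of it. At 7 weeks 2 macrophages held 85 and 67 Ccl5 UMIs and the next held 5. At 12 weeks the highest macrophages held 160, 156, 107, 53 and 44. CD4 T cells followed with 5.47 and 9.70, and B cells were lowest with 3.43 and 1.16. Of the B cell UMIs, 205 of 383 at 7 weeks and 123 of 446 at 12 weeks sat in 1 barcode that also held 18 and 11 Cd3d UMIs. Without B cell barcodes holding 3 or more Cd3 UMIs the background was 1.07 and 0.816 per 10000.

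Xcl1 was carried by the same 2 lymphocyte classes, with the Ncr1 lymphocytes above the CD8 T cells at both ages. Ncr1 lymphocytes held 9.92 (9.06 to 10.8) and 11.7 (10.6 to 12.9) Xcl1 UMIs per 10000, and CD8 T cells 6.47 (6.07 to 6.91) and 8.0 (7.70 to 8.30). CD4 T cells were far lower, at 0.866 and 0.737, and B cells held 0.134 and 0.198. In macrophages there were 0 Xcl1 UMIs at 7 weeks, which allows up to 0.549 per 10000, and 4 UMIs at 12 weeks.

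Ccl3 and Ccl4, which encode the chemokines also called MIP-1α and MIP-1β, were spread over more classes. Ccl4 stood at 6.91 (6.48 to 7.35) and 9.77 (9.45 to 10.1) per 10000 in CD8 T cells. The CD4 T cells held 5.36 (5.09 to 5.65) and 3.29 (3.14 to 3.45). The CD8 T cells were thus above the CD4 T cells at both ages, and without the 2 CD4 T cells with the most Ccl4 at 7 weeks the CD4 value of that age was 2.25 (2.08 to 2.44). Macrophages held 4.76 (3.26 to 6.72) and 2.53 (1.97 to 3.20), and Ncr1 lymphocytes 2.19 (1.80 to 2.64) and 2.21 (1.76 to 2.76). At 12 weeks the intervals of these last 2 classes overlapped. The macrophage values rested on few cells. The highest macrophage held 18 Ccl4 UMIs at 7 weeks and the next 4. At 12 weeks the highest held 23, 21 and 13 and the next 2. B cells held 0.653 and 0.242. Ccl3 had the fewest UMIs of the CC members in CD8 T cells, at 1.86 (1.65 to 2.10) and 2.55 (2.38 to 2.72). At 7 weeks the CD4 T cells (1.68, 1.53 to 1.84), the Ncr1 lymphocytes (1.57, 1.24 to 1.95) and the macrophages (1.04, 0.419 to 2.15) overlapped with the CD8 T cells in their intervals. For the CD4 T cells this rested on the same 2 cells, without which they held 0.440 (0.364 to 0.527), below the CD8 T cells. At 12 weeks the CD4 T cells had 0.700 (0.630 to 0.776) and the Ncr1 lymphocytes 1.72 (1.32 to 2.20), both below the CD8 T cells. B cells held 0.322 and 0.0936 Ccl3 UMIs per 10000.

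**Figure D1:**
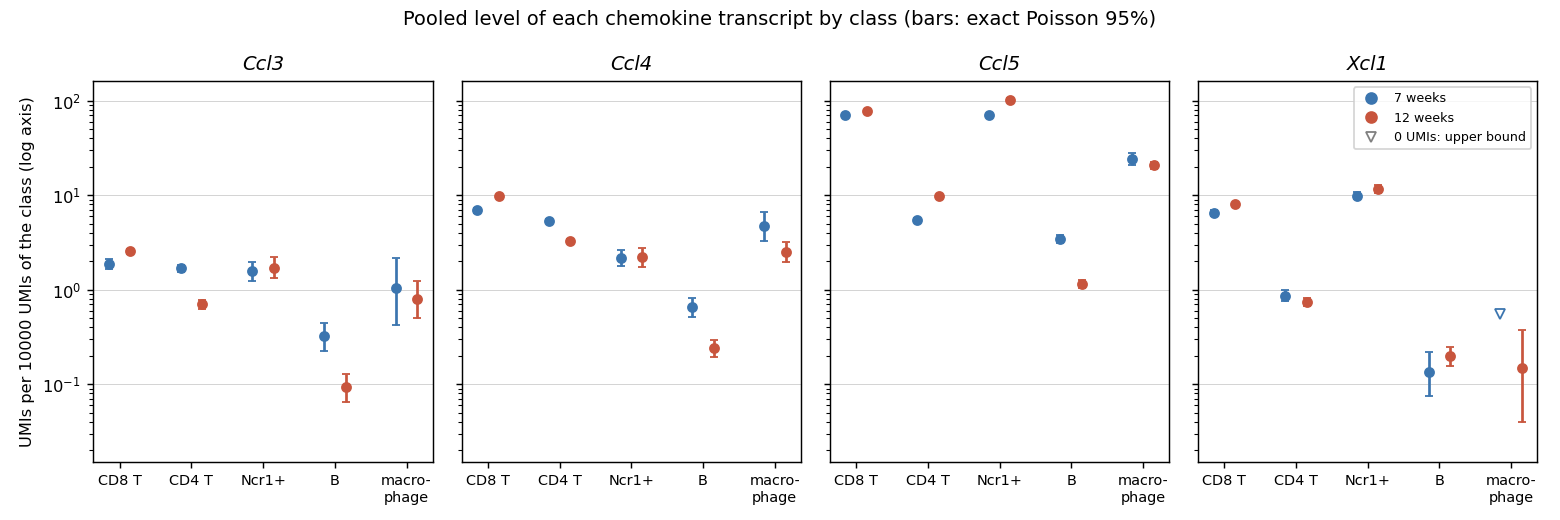
Pooled level of each member in the 5 classes at 7 weeks (blue) and 12 weeks (red), in UMIs per 10000 UMIs of the class on a log axis. Bars are exact Poisson 95% intervals of the UMI sums and the open triangle marks the upper limit of a class with 0 UMIs. Ccl5 and Xcl1 stand high in CD8 T cells and Ncr1 lymphocytes, while Ccl4 reaches 5.36 per 10000 in CD4 T cells at 7 weeks.

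The mixture of the 4 transcripts differed between the classes. Counted as UMIs, which are 1 per molecule and were not divided by transcript length, Ccl5 made up 82.2% and 79.4% of the member UMIs of CD8 T cells and 83.8% and 86.8% of those of Ncr1 lymphocytes. Ncr1 lymphocytes had 11.8% and 9.90% Xcl1 but only 1.86% and 1.45% Ccl3. In CD4 T cells Ccl4 made up 40.1% at 7 weeks, next to 40.9% Ccl5, and 22.8% at 12 weeks, next to 67.2% Ccl5. The CD4 T cells together held 48.6% of all Ccl4 UMIs of the 7 week library and 24% of those of the 12 week library, and the CD8 T cells 33.2% and 48.2%. At 7 weeks 2 CD4 T cells held 845 of the 1449 Ccl4 and 336 of the 454 Ccl3 UMIs of the class. Without them, an alternative added after the data were seen, Ccl4 made up 25.0% of the member UMIs of the CD4 T cells and Ccl5 60.4%, and the CD4 T cells held 28.3% of the library's Ccl4 UMIs.

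CD8 T cells had higher pooled levels of all 4 members at 12 weeks, and none of the 4 reached a ratio of 1.5. The 12 over 7 week ratio was 1.37 (1.19 to 1.57) for Ccl3, 1.41 (1.32 to 1.52) for Ccl4, 1.11 (1.09 to 1.14) for Ccl5 and 1.24 (1.15 to 1.33) for Xcl1. Among all genes with at least 50 UMIs in the class, 6.19% were higher and 6.41% lower by 1.5-fold or more, and the 4 members were among the genes between these bounds. The share of CD8 T cells with a UMI was compared after each cell was thinned to 2500 UMIs. It was 13.7% and 15.3% for Ccl3 (20.8% and 28.0% unthinned), 27.4% and 30.8% for Ccl4 (46.4% and 41.5% unthinned), 62.5% and 62.4% for Ccl5 (76.2% and 71.4% unthinned) and 21.4% and 24.1% for Xcl1 (29.8% and 33.1% unthinned). The intervals of all 4 thinned differences included 0, and that of Ccl5 ran from -8.42 to 8.52 points. Counted from 3 UMIs instead of 1, the thinned share with Ccl4 was 11.9% and 19.4%, a difference of 7.45 points (0.788 to 13.0). The median depth of these cells was 6234.5 UMIs at 7 weeks and 5381 at 12 weeks. In B cells, with medians of 5351 and 4689 UMIs, the thinned shares were 4.76% and 2.0% for Ccl3, 7.14% and 5.38% for Ccl4, 20.8% and 20.7% for Ccl5 and 7.14% and 2.76% for Xcl1 (7.74% and 4.30%, 14.3% and 9.98%, 45.8% and 36.9%, and 7.74% and 4.92% unthinned). All CD8 T cell shares were above these. Without cycling cells the Ccl3 ratio of CD8 T cells was 1.04 (0.859 to 1.25), since the 24 and 56 cycling cells held 2.20 and 4.45 Ccl3 UMIs per 10000 and the others 1.68 and 1.73. Without the 5 highest cells of each library the ratios were 2.90 for Ccl3 and 2.35 for Ccl4. Taken as a mean over cells, the Xcl1 ratio turned to 0.745.

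CD4 T cells showed lower Ccl3 and Ccl4 and higher Ccl5 at 12 weeks. The ratio was 0.417 (0.362 to 0.479) for Ccl3, 0.614 (0.572 to 0.659) for Ccl4, 1.77 (1.67 to 1.88) for Ccl5 and 0.851 (0.721 to 1.01) for Xcl1, against 4.21% of genes higher and 7.84% lower by 1.5-fold or more. The ratios of Ccl3 and Ccl4 rested on 2 cells. At 7 weeks a CD4 T cell held 176 Ccl3, 450 Ccl4 and 59 Ifng UMIs, another held 160, 395 and 100, and these 2 cells carried over 50% of the class's UMIs of either chemokine. Without them the ratios turned to 1.59 (1.29 to 1.98) for Ccl3 and 1.46 (1.33 to 1.61) for Ccl4, an alternative added after the data were seen. Leaving out the 5 highest cells of both ages gave 1.99 (1.44 to 2.80) and 1.46 (1.28 to 1.67).

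For the share of CD4 T cells with a UMI, thinned to 2500 UMIs, the intervals of the 4 differences between the ages included 0. For Ccl3, thinned, it was 6.0% and 4.69% (10.3% and 7.57% unthinned) and 12.9% and 11.2% for Ccl4 (20.6% and 16.6% unthinned), at medians of 5806 and 4716 UMIs per cell, and the Ccl3 difference had an interval of -4.56 to 1.32 points. For Ccl5 it was 28.9% and 29.8% (49.7% and 47.0% unthinned). The thinned Ccl3 share at 7 weeks was little above that of B cells, given earlier. The Xcl1 share of 6.57% at 7 weeks did not exceed that of B cells, and at 12 weeks it was 4.09% (12.9% and 7.33% unthinned). The Xcl1 difference was -2.48 points (-5.79 to 0.180), but it was -5.53 (-9.75 to -1.84) unthinned and -1.40 (-3.50 to -0.0977) counted from 3 UMIs, with intervals below 0. Endocrine, acinar and macrophage genes summed higher at 12 weeks in all 4 lymphocyte classes. In the CD4 T cell class the 5 endocrine genes summed to 0.330 UMIs per 10000 at 7 weeks and 14.7 at 12 weeks, the 6 macrophage genes to 0.389 and 4.72 and the 6 acinar genes to 0.115 and 1.79. The endocrine sum was 0.265 and 1.32 in CD8 T cells, 0.141 and 1.14 in Ncr1 lymphocytes and 0.215 and 1.35 in B cells. The acinar sum was 0.279 and 1.46, 0.181 and 1.74, and 0.492 and 1.73 in these 3 classes, and the macrophage sum 0.509 and 1.29, 0.662 and 0.775, and 0.269 and 0.601. In Ncr1 lymphocytes the 4 plasmacytoid dendritic cell genes summed to 4.02 and 7.34. With ribosomal protein, mitochondrial, haemoglobin, acinar and endocrine genes taken out of the total, the Ccl3 and Ccl4 ratios were 0.423 and 0.623. The part of RNA of other cells in the ratios was not tested in any class.

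Ncr1 lymphocytes differed between the ages mainly in Ccl5. Its ratio was 1.46 (1.39 to 1.52), and that of Xcl1 1.18 (1.03 to 1.35), or 0.973 (0.857 to 1.10) with no doublets removed, while 7.21% of genes with at least 50 UMIs were higher and 8.12% lower by 1.5-fold or more. Ccl3 had a ratio of 1.10 (0.772 to 1.55) and Ccl4 of 1.01 (0.749 to 1.36), so no difference was detectable for either at this depth. Thinned shares were 88.7% and 95.4% for Ccl5 (93.0% and 100% unthinned), 69.0% and 78.5% for Xcl1 (83.1% and 90.8% unthinned), 18.3% and 15.4% for Ccl3 (31.0% and 24.6% unthinned) and 21.1% and 24.6% for Ccl4 (29.6% and 33.8% unthinned), at medians of 5897 and 4845 UMIs, and all 4 intervals of the thinned difference included 0. For Ccl5 the difference was 12.2 points (0.864 to 23.3) counted from 3 UMIs and 7.04 (0.178 to 15.4) unthinned, with intervals above 0. Both Xcl1 and Ccl5 were thus found in most Ncr1 lymphocytes at either age. They were present with and without Cd3 transcripts. The 13 and 10 Ncr1 lymphocytes with no Cd3 UMI held 10.4 and 10.3 Xcl1 and 56.0 and 93.7 Ccl5 UMIs per 10000, and the 58 and 55 with Cd3 held 9.84 and 12.0 and 73.0 and 104. Ccl3 was 4.09 and 4.23 per 10000 in the former and 1.13 and 1.22 in the latter. With 13 and 10 cells, the former values can rest on few cells. Among Ncr1 lymphocytes without a Cd3d or Cd3e UMI, the highest Ccl3 counts were 12 and 11 at 7 weeks and 14 at 12 weeks.

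In B cells 3 of the members were lower at 12 weeks, with ratios of 0.290 (0.178 to 0.474) for Ccl3, 0.370 (0.269 to 0.510) for Ccl4 and 0.338 (0.294 to 0.389) for Ccl5, and Xcl1 had a ratio of 1.47 (0.839 to 2.76). Of all genes 8.7% were higher and 7.83% lower by 1.5-fold or more in B cells. Without the 11 B cell barcodes of either age with 3 or more Cd3 UMIs the ratio was 0.240 (0.143 to 0.402) for Ccl3, 0.521 (0.348 to 0.793) for Ccl4, 0.762 (0.605 to 0.967) for Ccl5 and 0.530 (0.272 to 1.08) for Xcl1, an alternative added after the data were seen, with the Xcl1 ratio on the other side of 1. The T cell markers of the class summed to 2.25 UMIs per 10000 at 7 weeks and 1.39 at 12 weeks.

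**Figure D2:**
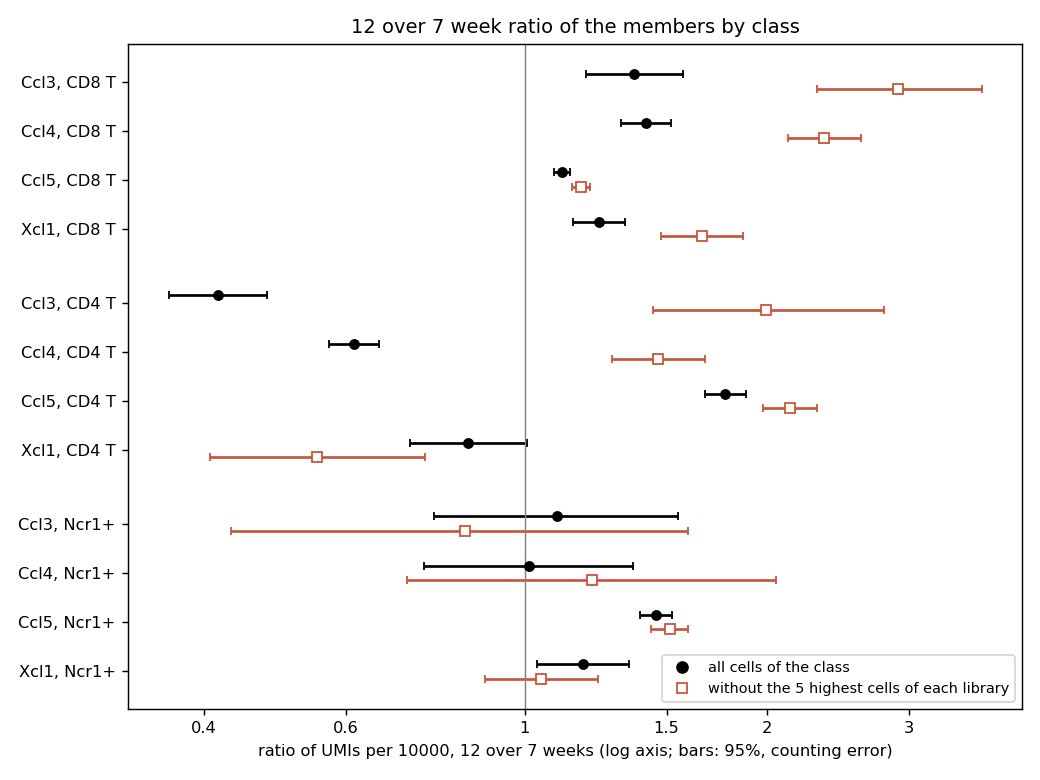
The 12 over 7 week ratio of UMIs per 10000 for each member in CD8 T cells, CD4 T cells and Ncr1 lymphocytes, on a log axis, with 95% counting intervals as bars. Filled circles use all cells and open squares leave out the 5 cells of each library with the most UMIs of the gene. In CD8 and CD4 T cells these 5 are a larger share of the class at 7 weeks than at 12 weeks. In CD4 T cells Ccl3 goes from 0.417 to 1.99 and Ccl4 from 0.614 to 1.46, crossing 1.

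The 4 transcripts were spread over cells in different ways. In CD8 T cells 50% of the Ccl5 UMIs sat in 21 cells at 7 weeks and 47 at 12 weeks, but 50% of the Ccl3 UMIs sat in 3 and 12 cells, of the Ccl4 UMIs in 5 and 16 and of the Xcl1 UMIs in 4 and 6. The 5 highest CD8 T cells held 68.5% and 31.6% of Ccl3, 57.3% and 27.8% of Ccl4, 16.7% and 10.1% of Ccl5 and 61.7% and 46.9% of Xcl1. Ccl3, Ccl4 and Xcl1 were thus carried by few cells, and Ccl5 by many. Among CD4 T cells the concentration was stronger, with 50% of Ccl3 and of Ccl4 in 2 cells at 7 weeks and in 6 at 12 weeks, and 50% of Ccl5 in 7 and 11. In Ncr1 lymphocytes 50% of Xcl1 was spread over 13 and 10 cells and 50% of Ccl5 over 13 and 18, while 50% of Ccl3 sat in 4 and 3. The median Ncr1 lymphocyte held 34 Ccl5 UMIs at 7 weeks and 53 at 12 weeks and 5 and 4 Xcl1 UMIs. The median CD8 T cell held 8 and 4 Ccl5 UMIs and 0 of each of the other members.

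The highest single cells gave a large part of their RNA to 1 chemokine. The highest Ccl5 value in a CD8 T cell was 404 UMIs at 7 weeks and 628 at 12 weeks, and Ccl5 reached 6.51% and 11.3% of a cell's UMIs. The highest Xcl1 values were 202 and 446 UMIs, the highest Ccl4 values 200 and 230 and the highest Ccl3 values 58 and 112. In CD4 T cells Ccl4 reached 5.91% and 5.18% of a cell's UMIs and Ccl5 3.46% and 10.0%. No Ncr1 lymphocyte held more than 14 Ccl3, 21 Ccl4 or 40 Xcl1 UMIs. Xcl1 in this class was therefore present in many cells at moderate counts, and in CD8 T cells in few cells at high counts.

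**Figure D3:**
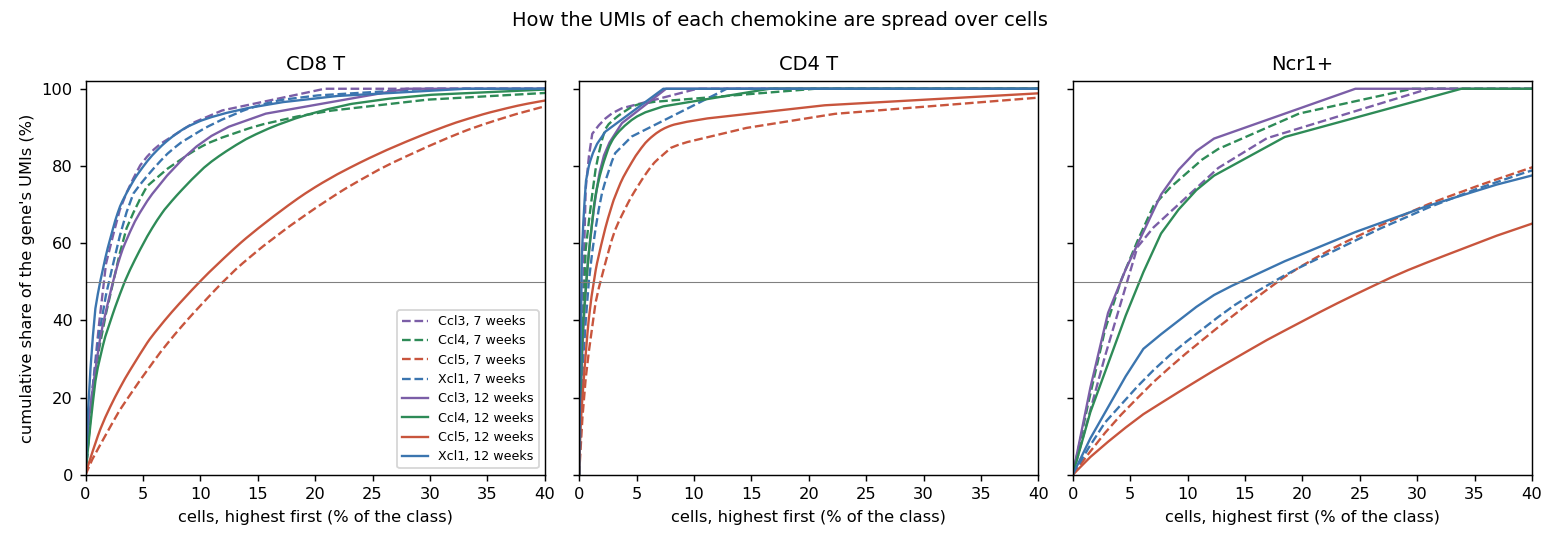
Cumulative share of each member's UMIs (vertical axis, percent) against the cells of a class ordered from the highest (horizontal axis, percent of the class, up to 40%), at 7 weeks (dashed) and 12 weeks (solid). The horizontal line marks 50%. Curves of Ccl3, Ccl4 and Xcl1 climb steeply in CD8 and CD4 T cells, that of Ccl5 more slowly, and in Ncr1 lymphocytes the Xcl1 curve runs near that of Ccl5.

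CD4 T cells with Foxp3, the regulatory T cell factor, were 49 and 56. They held 7.47 and 3.62 Ccl4 UMIs per 10000 and 10.1 and 3.62 Ccl5 UMIs, and their Ccl3 was 31 UMIs at 7 weeks and 1 at 12 weeks. Xcl1 was near the background in them, with 4 and 6 UMIs. Few cells weighed on the 7 week values. At that age 2 Foxp3 cells held 109 and 99 Ccl4 UMIs, and the former also held 26 of the 31 Ccl3 UMIs. The highest Ccl5 counts in Foxp3 cells were 151 and 93 UMIs. Levels without these cells were not computed.

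Co-detection of the members was read from cells thinned to 2500 UMIs, at 3 or more UMIs of a gene. Of the CD8 T cells positive for Ccl3, 3 of 5 at 7 weeks and 26 of 28 at 12 weeks were also positive for Ccl4, against 10 of 145 and 41 of 394 cells with no Ccl3 UMI. Of those positive for Ccl4, 16 of 20 and 81 of 90 were positive for Ccl5, against 50 of 122 and 101 of 322. In CD8 T cells at 12 weeks the CC members thus occurred in nested sets. The Ccl3 positive cells lay mostly within the Ccl4 positive and these mostly within the Ccl5 positive. At 7 weeks only 5 cells were Ccl3 positive. None of the 168 CD8 T cells at 7 weeks and 3 of 465 at 12 weeks were positive for all 4 members, and 72 and 221 for none. In CD4 T cells 4 of 5 and 10 of 14 Ccl3 positive cells were positive for Ccl4. The second step was weaker there, with 8 of 13 and 19 of 37 Ccl4 positive cells positive for Ccl5. Of the CD4 T cells 311 of 350 and 742 of 832 were positive for none. In B cells 161 of 168 and 646 of 651 were positive for none. Over single CD8 T cells the Spearman correlation of Ccl3 with Ccl4 was 0.378 (168 cells) and 0.513 (465 cells). All cells of an age share 1 library, and counts were thinned to the same depth.

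Xcl1 followed another pattern. Of the Xcl1 positive CD8 T cells, 8 of 18 at 7 weeks and 27 of 43 at 12 weeks were positive for Ccl5, against 69 of 132 and 142 of 353 cells with no Xcl1 UMI. Xcl1 positive cells were thus found both with and without Ccl5. The Spearman correlation of Xcl1 with Ccl5 was -0.067 over 168 CD8 T cells and 0.219 over 465. In Ncr1 lymphocytes 23 of 28 and 33 of 33 Xcl1 positive cells were positive for Ccl5, against 16 of 22 and 10 of 14 cells with no Xcl1 UMI.

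**Figure D4:**
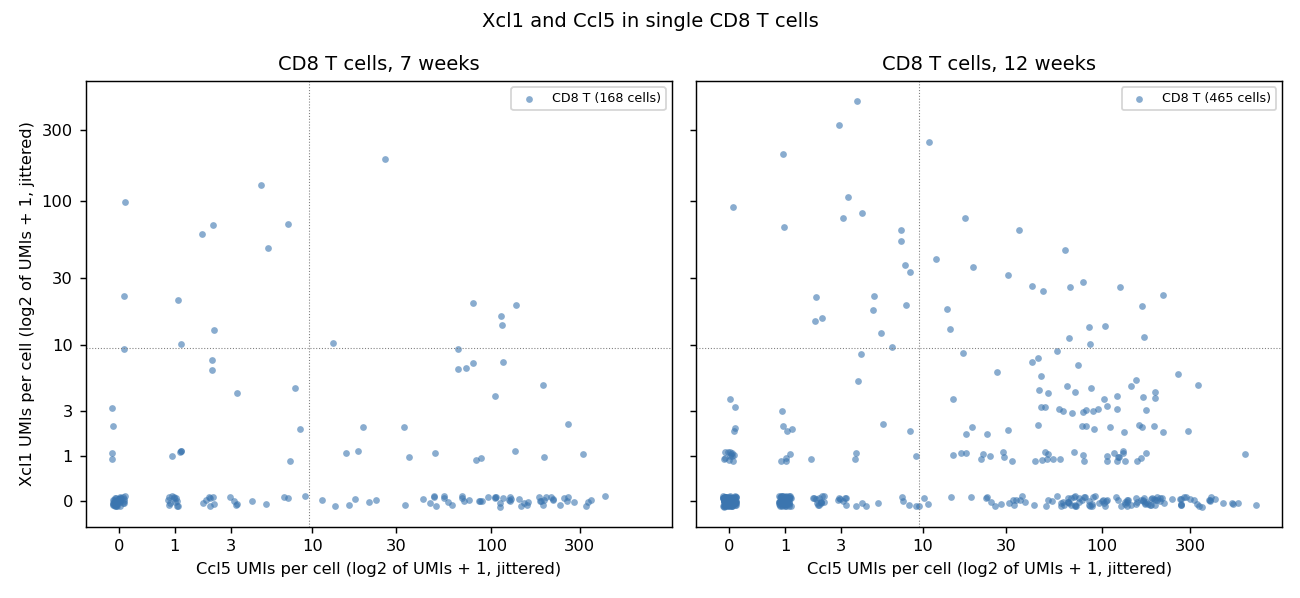
Xcl1 against Ccl5 UMIs in each CD8 T cell at 7 weeks (left, 168 cells) and 12 weeks (right, 465 cells), on log2 axes of UMIs + 1 with small jitter. Each point is 1 cell. Dotted lines mark 10 UMIs. The cells with the most Xcl1 lie at low Ccl5, among them the cell with 446 Xcl1 and 4 Ccl5 UMIs at 12 weeks.

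The cells with the most Xcl1 held little Ccl5. At 12 weeks the CD8 T cells with 446, 314, 239, 197 and 105 Xcl1 UMIs held 4, 3, 10, 1 and 3 Ccl5 UMIs. At 7 weeks the CD8 T cells with 136 and 95 Xcl1 UMIs held 5 and 0, and the one with 202 held 25. Of the 5 cells named at 12 weeks 3 were very deep, with 28991, 31223 and 37914 UMIs in all, and the part of doublets that the score did not remove was not tested. To describe what else differed, CD8 T cells were grouped by 10 or more UMIs of Xcl1 or Ccl5. Xcl1 without Ccl5 was found in 10 and 20 cells, Ccl5 without Xcl1 in 75 and 193, both in 7 and 21 and neither in 76 and 231. The groups are cut from a continuous range. In the Ccl5 high group 5 and 14 cells held 5 to 9 Xcl1 UMIs, and in the Xcl1 high group 2 and 2 held 10 to 14. The medians of all UMIs were 7150.5 and 10184 in the Xcl1 high and 7184 and 5870 in the Ccl5 high cells.

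The genes named for these groups were chosen after their values were seen, except for the granule and storage list. Gzmb, the gene of granzyme B, had 0 UMIs in the Xcl1 high cells at both ages, which allows up to 0.266 and 0.121 per 10000, against 3.21 and 3.59 in the Ccl5 high cells. Gzma, the gene of granzyme A, stood at 0.0722 and 0 against 2.15 and 4.29, and Gzmk at 0.939 and 0.556 against 2.78 and 3.70. Nkg7, a cytotoxic granule protein gene, was lower but present, at 14.7 and 20.9 against 30.1 and 36.4. Prf1, the gene of perforin, was scarce in both groups, with 0 and 1 UMIs in the Xcl1 high cells and 0.0767 and 0.151 per 10000 in the Ccl5 high cells. Srgn, which encodes the granule proteoglycan serglycin, stood at 3.25 and 6.94 against 7.79 and 8.75. Tnfrsf9, which encodes 4-1BB, went the other way. It held 1.95 (1.29 to 2.84) and 4.25 (3.56 to 5.05) UMIs per 10000 in the Xcl1 high cells, with a UMI in 6 of 10 and 17 of 20, against 0.230 (0.129 to 0.380) and 0.684 (0.559 to 0.829) in the Ccl5 high cells, with a UMI in 8 of 75 and 52 of 193. Cd160, a receptor of the immunoglobulin family, stood at 1.16 and 2.65 against 0.614 and 1.03. Ifng was 0.722 and 1.34 against 2.72 and 2.45. Pdcd1, the gene of the inhibitory receptor PD-1, stood at 2.96 and 2.49 against 3.24 and 2.97. Cd160 and Pdcd1 were among the 5 genes most correlated with Xcl1 over the same CD8 T cells, given below. Their values in groups cut on Xcl1 are therefore not separate support. Cycling cells were 3 of 10 and 6 of 20 in the former and 14 of 75 and 40 of 193 in the latter. The Xcl1 high cells are by definition under 10 Ccl5 UMIs. Of all CD8 T cells under that limit, 0 of 86 and 1 of 251 held 3 or more Gzmb UMIs. Low Gzmb was thus not particular to the Xcl1 high cells. Values of the groups with both or neither are not given here.

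Cells with 10 or more Ccl3 or Ccl4 UMIs often also held transcripts of Ifng, the gene of interferon-γ. Of the CD8 T cells with 10 or more Ccl3 UMIs, 5 of 7 at 7 weeks and 18 of 22 at 12 weeks held 3 or more Ifng UMIs, against 28 of 161 and 53 of 443 of the other CD8 T cells. For Ccl4 it was 11 of 17 and 38 of 73 against 22 of 151 and 33 of 392. The Ccl3 high cells were deeper, with medians of 11027 and 8920.5 UMIs against 6123 and 5325, and 3 of 7 and 11 of 22 of them were cycling, against 21 of 161 and 45 of 443. The part of depth in these counts was not tested. Of the CD8 T cells with 10 or more Ccl5 UMIs, 14 of 82 and 27 of 214 held 3 or more Gzmb UMIs, against 0 of 86 and 1 of 251 of the others.

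In CD4 T cells, high Ccl4 was found both in cells with Ifng and in cells with Il10 or Foxp3. Of the CD4 T cells with 10 or more Ccl4 UMIs, 12 and 25 cells, 4 and 12 held 3 or more Ifng UMIs, against 39 of 338 and 48 of 807 of the others. Il10, the gene of a regulatory cytokine, had 3 or more UMIs in 5 of 12 and 8 of 25, against 10 of 338 and 18 of 807. Foxp3 was found in 7 of 12 and 3 of 25, against 42 of 338 and 53 of 807. At 7 weeks the cells with the most Ccl4 included 1 with 109 Ccl4, 93 Ccl5, 15 Il10 and 4 Foxp3 UMIs and 1 with 99, 23, 17 and 3, next to the 2 Ifng cells named above. At 12 weeks 1 cell held 337 Ccl4, 235 Ccl5 and 25 Il10 UMIs, and another 203 Ccl4, 65 Ccl3, 99 Xcl1 and 22 Ifng. Ccl3 high CD4 T cells, 4 and 11, held 3 or more Ifng UMIs in 3 and 7 cases and Foxp3 in 1 and 0.

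**Figure D5:**
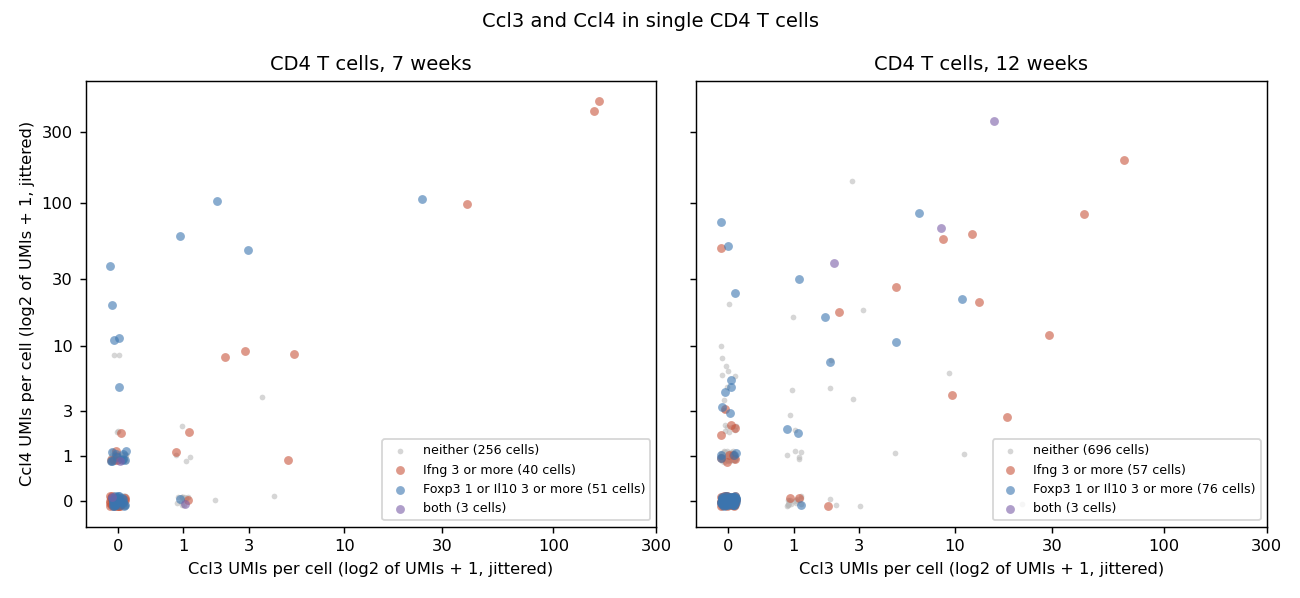
Ccl4 against Ccl3 UMIs in each CD4 T cell at 7 weeks (left, 350 cells) and 12 weeks (right, 832 cells), on log2 axes of UMIs + 1 with small jitter. Colours give cells with 3 or more Ifng UMIs, cells with a Foxp3 or 3 or more Il10 UMIs, both, or neither. The 2 cells at the upper right at 7 weeks hold 176 and 160 Ccl3 UMIs and 450 and 395 Ccl4 UMIs.

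Receptor transcripts were counted in the same classes. Ccr1 had a UMI in 3 of 7 and 10 of 22 macrophages, 11 of 350 and 8 of 832 CD4 T cells, 5 of 168 and 13 of 651 B cells and 0 of 168 and 3 of 465 CD8 T cells. Of all Ccr1 UMIs of a library the CD4 T cells held 24.4% and 8.06%, and the macrophages 5.81% and 10.8%. Xcr1, the receptor of XCL1, was found in only 12 and 30 of all kept barcodes, with 74 and 227 UMIs. Ccr3 and the decoy receptor gene Ackr2 were near absent, with 2 and 7 and with 2 and 6 UMIs in all.

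The other genes of the chemokine axis were read as counts of genes past 1.5-fold, among those with at least 20 UMIs in a class. In CD8 T cells 9.9% of such genes were higher and 9.27% lower at 12 weeks. Of 9 activation genes 2 were higher (Nr4a3 and Tnfrsf9, the latter from 0.502 to 0.873 per 10000) and 1 lower (Egr1, ratio 0.564). Of 6 granule and storage genes 2 were higher (Gzma, ratio 1.89, and Prf1, ratio 2.34), and of 9 transcription and mRNA decay factors none passed in either direction, with a median log2 ratio of -0.35 against 0.03 over all genes. The intervals of the Nr4a3 ratio (0.834 to 3.79) and of the Prf1 ratio (0.971 to 6.82) included 1. Gzma had a UMI in 7.14% of CD8 T cells at 7 weeks and in 5.59% at 12 weeks. In the CD4 T cell class, of 9 activation genes 0 were higher and 8 lower at 12 weeks, with a median log2 ratio of -0.88 against -0.01 over all genes, of which 6.69% were higher and 10.4% lower. Ifng had a ratio of 0.568 and Tnf of 0.505, and Nr4a1, Nr4a2 and Nr4a3, which respond to antigen receptor signals, had 0.440, 0.431 and 0.416. Of the 482 Ifng UMIs of the class at 7 weeks, 59 and 100 sat in the 2 cells with the most Ccl3. The Ifng ratio without these 2 cells was not computed. In the CD4 T cell class Ccr7, Lef1 and Il7r, which are high in naive and resting memory T cells, had 1.90, 1.87 and 2.37. In B cells, of 8 activation genes 0 were higher and 4 lower, with a median log2 ratio of -0.59 against 0.05 over all genes, of which 12.1% were higher and 11.4% lower, and Ifng had a ratio of 0.169. Whether the lower activation genes are particular to CD4 T cells was not tested. In CD4 T cells 2 of 9 transcription and mRNA decay factors were lower, Runx3 (0.638) and Zc3h12a (0.628). Of 5 granule genes in CD4 T cells Gzmk was higher (1.82) and Gzma lower (0.306). In Ncr1 lymphocytes 13.4% of genes were higher and 13.2% lower, and of 7 activation genes 2 were higher, Tnfrsf9 (5.52) and Cd69 (1.62), and 2 lower.

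Genes with the most similar pattern were sought in 2 ways, and both are descriptions. Over the 5 classes and 2 ages, 10 points that share libraries, and 8892 genes, Xcl1 was most like Ctla2a (Pearson 0.986), Sytl3 (0.982), Klrd1 (0.982), Arsb (0.980) and Gm29243 (0.979). Ccl5 was most like Runx3 (0.916), Prr5l, Cox7a2, Gabarapl1 and Klrk1 (0.896), and among the 5 genes most like Ccl4 were Cyth3 (0.974), Mrpl33, Paqr7 and Actr1b (0.909), and among those most like Ccl3 were Lgals1 (0.934), S100a6, Usp25 and Ccl4 (0.897). Over single CD8 T cells thinned to the same depth, with the Spearman correlation averaged over both libraries and 2669 genes compared, Ccl5 was most like Nkg7 (0.658), S100a6 (0.614), AW112010, S100a4 and Lgals1 (0.490). Ccl4 was most like Nkg7 (0.475), S100a6, Ccl5, Ccl3 and Rgs16 (0.439), and Ccl3 most like Ccl4 (0.446), Ccl5, Rgs16, Amica1 and Bcl2a1b (0.325). For Xcl1 they were Cd160 (0.335), Nr4a2 (0.322), Rgs16 (0.321), Pdcd1 (0.296) and Nkg7 (0.271). No other member was among the 5 of Xcl1 in either comparison.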

How the data were processed

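The values are raw UMI counts per gene and barcode, as the authors deposited them in 1 matrix a library. Per the submitters' processing notes they come from Cell Ranger 1.3.1 with build mm10. The gene annotation they used is not given in the sources used here. Both matrices list 27998 genes, and their totals were 8701184 UMIs at 7 weeks and 19288252 at 12 weeks, with no barcode under 2587 and 3031 UMIs. Barcodes with under 200 genes or over 10% of UMIs from mitochondrial genes were removed (4 and 8). Doublets were scored by the Scrublet method (2 simulated doublets per barcode, 2000 variable genes, 30 components, seed 0), and the highest scores were removed up to 0.8% per 1000 barcodes, 10 and 63.

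UMIs were summed by class and divided by all UMIs of the class, per 10000. Levels have exact Poisson intervals, ratios exact conditional binomial intervals and share differences Newcombe intervals. Shares were compared after thinning every cell to 2500 UMIs, which left out 0 cells. Cycling cells held 5 or more UMIs over Mki67, Top2a, Birc5, Ube2c, Cdk1 and Rrm2. The pooled ratio was checked on simulated data. Named genes were the members, the axis lists with 20 or more UMIs, and the 5 genes most correlated with each member (log2 of UMIs per 10000 + 0.1 over classes, or Spearman over CD8 T cells, for genes with a UMI in 10% of cells). The genes compared between Xcl1 high and Ccl5 high cells were chosen after their values were seen. Alternatives were no doublet removal, at most 5% mitochondrial UMIs, other class rules, no cycling cells, no highest cells, a mean over cells, another total, thinning to 4000 UMIs or not at all, and positives from 3 UMIs. Results that need 3 of the listed or correlated genes are not reported here. The members and lists were chosen with earlier results of these data known. Python 3.11.15, numpy 2.4.6, scipy 1.17.1, pandas 2.3.3, scikit-learn 1.9.0 and matplotlib 3.10.9 were used.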

Additional observations from a re-analysis of the deposited data

Results flagged for a closer look

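The 12 over 7 week ratios of 2 members went in opposite directions in the T cell classes. For Ccl3 the ratio was 1.37 in CD8 T cells and 0.417 in CD4 T cells, and for Ccl4 it was 1.41 and 0.614. With 1 library per age the difference was not tested. Without the 2 highest CD4 T cells of 7 weeks the CD4 T cell ratios were 1.59 and 1.46. Leaving out high cells at 7 weeks alone can only raise these ratios.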

How the results depend on the processing

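Of 94 alternative values of the 12 ratios, 67 stayed within the counting interval of the value reported, 21 moved beyond it and 6 reversed. Of 56 alternative values of the 12 share differences 1 moved. Without the 5 highest cells of each library the CD8 T cell ratio was 2.90 for Ccl3, 2.35 for Ccl4, 1.17 for Ccl5 and 1.66 for Xcl1. In CD4 T cells it was 1.99 (reversed), 1.46 (reversed), 2.13 and 0.553. The 5 cells are a larger share of both T cell classes at 7 weeks, which by itself tends to raise the ratio. Leaving out high cells at 7 weeks alone, as in the next alternative, can only raise the ratio. Without the 2 highest CD4 T cells of 7 weeks, an alternative chosen after seeing the data, Ccl3 was 1.59 and Ccl4 1.46, both reversed. Without cycling cells it was 1.04 for Ccl3, 1.03 for Ccl5 and 1.40 for Xcl1 in CD8 T cells, 1.90 for Ccl5 and 1.04 for Xcl1 in CD4 T cells and 1.31 for Ccl5 in Ncr1 lymphocytes. As a mean over cells it was 1.3 for Ccl4 and 0.745 (reversed) for Xcl1 in CD8 T cells, and 0.516, 0.747, 2.18 and 0.587 for Ccl3, Ccl4, Ccl5 and Xcl1 in CD4 T cells. With every barcode meeting a rule, Ccl5 was 1.14, 1.65 and 1.26 in CD8 T cells, CD4 T cells and Ncr1 lymphocytes, and with Cd3 required and Siglech barred 1.88 in CD4 T cells. With no doublets removed, Xcl1 in Ncr1 lymphocytes was 0.973 (reversed). Unthinned, the Ccl4 share of CD8 T cells differed by -4.92 points. The interval of the Xcl1 share difference in CD4 T cells included 0 only in the value reported, and lay below 0 under each alternative run, with -4.44 (-8.58 to -0.959) thinned to 4000 UMIs, where that of Ccl3 was -3.60 (-7.58 to -0.270). The causes of these changes were not tested. No paired analysis was possible because each age has 1 library, so no replicate could be left out and no spread between mice was measured. Classes of 7 to 71 cells, and members carried by under 10 cells, also limit the ratios.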

Other observations

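Ccl8, which encodes another CC chemokine, had 1366 UMIs in 9 of 22 macrophages at 12 weeks (50.1 per 10000) and 0 UMIs in 7 macrophages at 7 weeks. Over all kept barcodes Ccl8 had 89 UMIs in 7 barcodes at 7 weeks. At 12 weeks it had 2987 UMIs, of which the macrophages held 45.7%. At 12 weeks it also had a UMI in 57 of 832 CD4 T cells, 29 of 465 CD8 T cells and 46 of 651 B cells, and at 7 weeks in 0 of 350, 2 of 168 and 0 of 168. These lymphocytes held 60, 29 and 49 Ccl8 UMIs at 12 weeks, and the part of RNA of other cells in them was not tested. Xcr1 UMIs in CD8 T cells at 12 weeks were 63, in 5 cells. The 67 and 158 barcodes with Cd4 and with Cd8a or Cd8b1, a class added after the data were seen, held 0.572 and 5.10 Xcl1, 0.341 and 2.60 Ccl3, 1.96 and 7.28 Ccl4 and 14.9 and 23.1 Ccl5 UMIs per 10000, and 1 such barcode at 12 weeks held 452 Xcl1 UMIs. Barcodes with 3 or more Siglech UMIs, 18 and 32, held 4.81 and 3.19 Ccl4 and 6.05 and 0.972 Ccl5 UMIs per 10000. Barcodes outside the classes with 10 or more Lyz2 UMIs and at most 1 UMI over Cd3d, Cd3e and Cd3g were 13 and 25. They held 2.34 and 1.85 Ccl3 UMIs per 10000, and 4 and 10 of them held a Cd3 UMI.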
